A study of Mus musculus with 6 samples.

Results

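The genes described here carry sterol into the enterocyte, out of it and through it. They are Npc1l1, Scarb1, Abcg5, Abcg8, Abca1, Soat2, Npc1, Npc2, Osbpl1a and Nr1h3. These 10 genes were listed by name, with results of the same comparison already known, and were taken from the 38561 genes of the deposited tables by matching mouse Ensembl gene identifiers to symbols. All 10 were found and all 10 passed the filter on low counts that left 16425 genes to test. Their differences between the groups are therefore given as a description.

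RNA-seq was performed on mucosa scraped from the small intestine of C57BL/6J mice of 8 to 12 weeks on chow, with 3 mice of both sexes in each pool. There were 3 pools labelled Rbm47_IKO and 3 labelled wt. The first label stands for intestinal deletion of the gene for the RNA-binding protein RBM47 by a constitutive Cre transgene under the villin promoter. The villin promoter is active in the epithelium of the small and large intestine, so muscle, stroma and immune cells in a scraping were not targeted. The labels call the controls wt and the methods of the study describe Rbm47 fl/fl controls, so it is not settled here whether the control pools carried floxed alleles. Mice per pool and ages are those of the labels, and the methods of the study give somewhat wider ranges for both. Nothing in the labels ties a pool of one group to a pool of the other.

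Transcript counts of Rbm47 did not fall with the label. Normalized CPM values (counts scaled to library size, with edgeR's TMM factors) were 602.7, 624.6 and 619.8 in pools 1 to 3 labelled Rbm47-IKO. The wt pools were at 459.8, 449.9 and 472.1, giving a log2 fold change of 0.42 (SE 0.10, edgeR quasi-likelihood adjusted p = 0.0751). The gene count therefore goes against the label. The sources used here do not say which exons the deletion removes, and a count over the whole gene can include reads from outside them. Each direction below is that of the libraries labelled Rbm47-IKO. Between 31560320 and 38951830 reads were counted per pool. Of the 16425 genes tested, 2.7% were called at an edgeR adjusted p of 0.05 or less, 1.45% higher and 1.25% lower in the pools labelled Rbm47-IKO. The median log2 fold change of all genes was -0.01, and the middle part of the distribution, from the lower to the upper quartile, ran from -0.23 to 0.23. No label says that the pools of a group came from separate litters or days, so p-values measure only the spread between these pools.

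Cholesterol and plant sterols in the gut lumen reach the brush border in bile acid micelles. NPC1L1 takes sterol in at the brush border, where ABCG5 and ABCG8, which work as a heterodimer, pump plant sterols and part of the cholesterol back into the lumen. SOAT2 esterifies cholesterol in the endoplasmic reticulum for packing into chylomicrons, and ABCA1 passes cholesterol to apolipoprotein A-I at the basolateral side. Cholesterol from endocytosed lipoproteins leaves the lysosome by way of NPC2 and NPC1. The nuclear receptor LXR alpha, the product of Nr1h3, is activated by oxysterols and drives Abca1, Abcg5 and Abcg8.

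Enterocyte markers were abundant in every pool. The summed level of 11 enterocyte marker genes was 51985 to 55461 CPM in the pools labelled Rbm47-IKO and 52192 to 57372 CPM in the wt pools, and these ranges overlap. Within the list, Fabp2 and Anpep were higher and Sis, Slc5a1 and Apoa4 lower without overlap, and the other 6 overlapped. EdgeR called 0 of the 11, DESeq2 4 and limma-voom 0, and 5 had an unadjusted p under 0.05. Over all genes tested, DESeq2 called 7.95% and limma-voom 2.62%, 16.8% had an unadjusted p under 0.05, and 11.7% were higher and 11.6% lower without overlap. In bulk mucosa, fewer enterocytes and less RNA per enterocyte cannot be told apart.

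The levels of the 10 genes per kilobase spanned a wide range. Expressed as RPKM (reads scaled to library size and gene length) and averaged over the 3 wt pools, Npc1l1 was highest at 347 ± 24.3 (SD). Soat2 at 153 ± 22.9 and Abcg5 at 144 ± 8.48 followed, with overlapping pools, and then Abcg8 at 86.8 ± 7.96. Nr1h3 at 27.2 ± 2.51 and Abca1 at 26.7 ± 10.7 also overlapped. Npc2 at 15.7 ± 1.77, Npc1 at 12.0 ± 1.498, Osbpl1a at 3.68 ± 0.17 and Scarb1 at 0.85 ± 0.41 came below, each clear of the next in every wt pool. Npc1l1 ranked 114 of the 16425 genes tested by mean RPKM over the 6 pools, while Scarb1 ranked 12232. In the pools labelled Rbm47-IKO the order was the same except that Abca1, at 24.2 ± 5.06, stood above Nr1h3, at 22.4 ± 1.03, and the pools of Abca1 overlapped those of Nr1h3 and of Npc2.

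**Figure D1:**
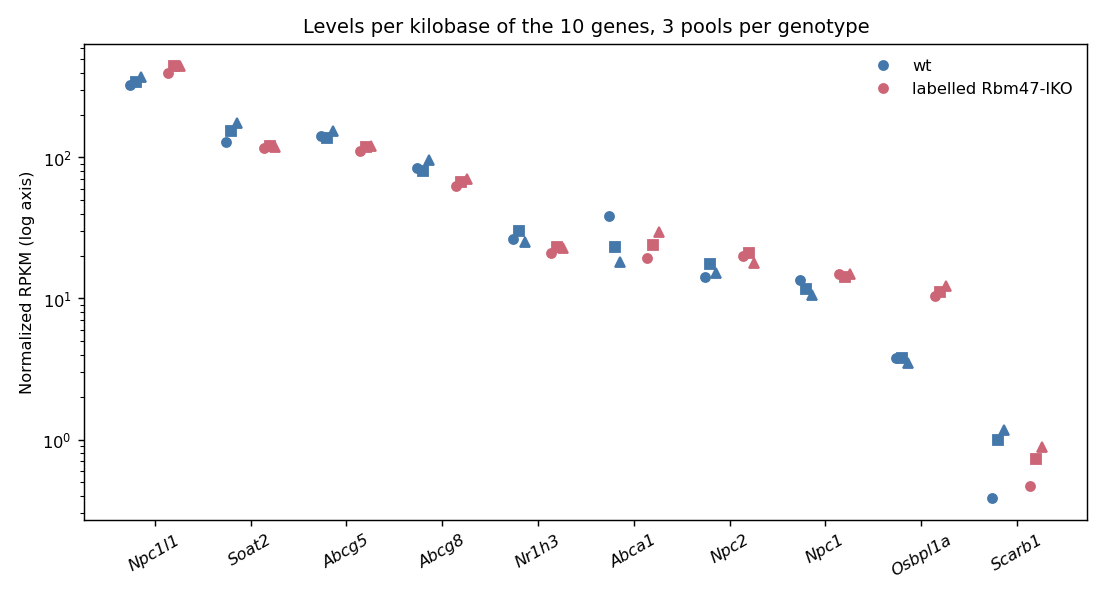
Level of each of the 10 genes per kilobase (RPKM, log axis) in every pool, wt and labelled Rbm47-IKO. Npc1l1 is highest and Scarb1 lowest in both groups, and the 2 groups lie farthest apart for Osbpl1a.

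Across the 10 genes, 1 was called over all genes tested (Osbpl1a, higher) and 9 were not. At an unadjusted p under 0.05 there were 8 of 10, where 16.8% of all genes tested were. DESeq2 and limma-voom also called 1 each, and over all genes they called 7.95% and 2.62%. The pools of the 2 groups did not overlap for 4 genes that were higher (Npc1l1, Npc1, Npc2 and Osbpl1a) and for 4 that were lower (Abcg5, Abcg8, Soat2 and Nr1h3) in the pools labelled Rbm47-IKO. Over all genes tested, 11.7% were without overlap in the higher direction and 11.6% in the lower direction. Because the genes were chosen with this contrast known, nothing is read from these shares. The median log2 fold change of the 10 genes was -0.21, and leaving Osbpl1a aside the size of the log2 fold change lay between 0.14 and 0.39.

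**Figure D2:**
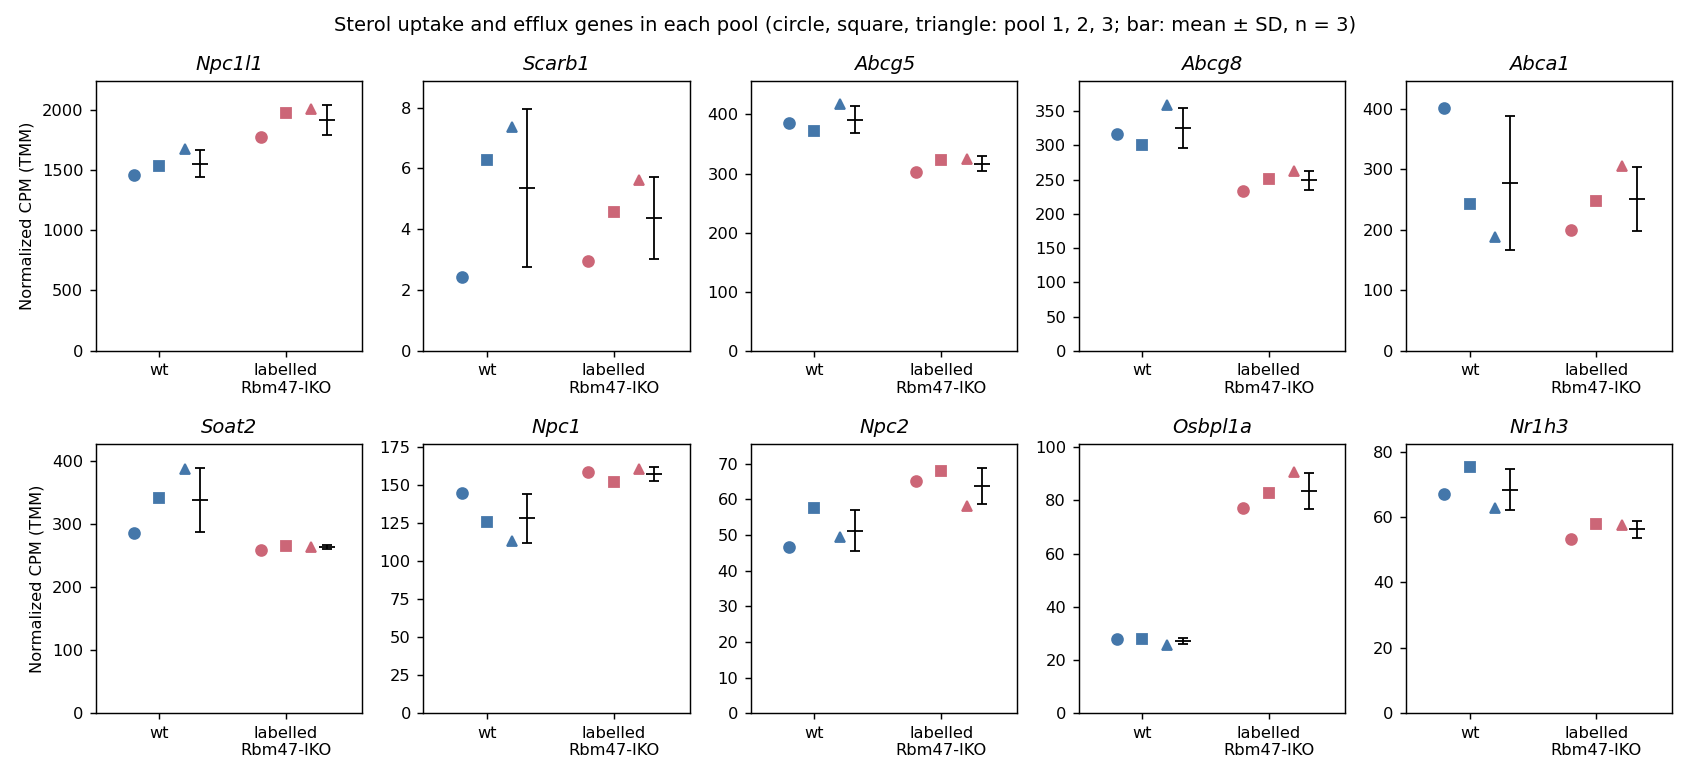
Normalized CPM of each of the 10 genes in every pool (points), with the mean and SD of 3 pools beside them, on axes from 0. Osbpl1a is at 77.2 to 90.5 CPM in the pools labelled Rbm47-IKO and at 25.8 to 27.9 CPM in the wt pools, while Scarb1 and Abca1 overlap between the groups.

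Of the genes of uptake, Npc1l1 (ENSMUSG00000020447), the brush border sterol importer, was higher in each pool labelled Rbm47-IKO than in any wt pool. Its level was 1774, 1973 and 2002 CPM in the pools labelled Rbm47-IKO and 1454, 1534 and 1669 CPM in the wt pools. The means were 1916 ± 124 and 1552 ± 108 CPM (SD, n = 3 each). The log2 fold change was 0.30 (SE 0.12), which was not called over all genes (edgeR adjusted p = 0.271). These values rest on 49445 to 74736 reads per pool, the deepest coverage of the 10 genes. The gene lies on chromosome 11 from 6211013 to 6230143 on the minus strand (GRCm38).

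The sequence upstream of Npc1l1 is shown because the importer is the most abundant of these genes, with the 250 bases before its RefSeq start (GRCm38.p6, minus strand, chr11:6230246-6230495) printed 5′ to 3′. The RefSeq start lies upstream of the start in the annotation used for coordinates above. Capitals mark 1 match to the nuclear receptor half-site AGGTCA on the opposite strand, a match that 14.0% of 32851 RefSeq promoter windows of the same length hold on either strand.
Npc1l1: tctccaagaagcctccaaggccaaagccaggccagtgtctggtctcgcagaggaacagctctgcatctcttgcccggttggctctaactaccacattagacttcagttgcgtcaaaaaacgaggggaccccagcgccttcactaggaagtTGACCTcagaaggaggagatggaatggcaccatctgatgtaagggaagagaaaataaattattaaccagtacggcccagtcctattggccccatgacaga

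Scarb1 (ENSMUSG00000037936) encodes the scavenger receptor SR-BI, which binds HDL and exchanges cholesterol at the cell surface. Its level was 2.95, 4.57 and 5.60 CPM in the pools labelled Rbm47-IKO and 2.41, 6.27 and 7.35 CPM in the wt pools. The groups overlap, and pool 1 is the lowest in each. With 82 to 268 reads per pool and coefficients of variation of 30.6% and 48.6%, the log2 fold change of -0.29 (SE 0.42, edgeR adjusted p = 0.825) was smaller than its error. With single pools left out it ran from -0.64 without wt pool 1 to 0.01 without wt pool 3. The gene lies on chromosome 5 from 125277087 to 125341094 on the minus strand.

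The paired exporters were both lower. Abcg5 (ENSMUSG00000040505, chromosome 17, 84658234 to 84683011, minus strand) was at 301.9, 323.1 and 325.4 CPM in the pools labelled Rbm47-IKO and at 385.0, 372.4 and 417.0 CPM in the wt pools. Abcg8 (ENSMUSG00000024254, chromosome 17, 84676302 to 84700333, plus strand) was at 233.5, 250.9 and 262.2 CPM and at 316.6, 301.0 and 358.7 CPM in the same order of groups. For both genes the highest pool labelled Rbm47-IKO was below the lowest wt pool. The log2 fold changes were -0.31 (SE 0.10, edgeR adjusted p = 0.187) for Abcg5 and -0.39 (SE 0.11, edgeR adjusted p = 0.130) for Abcg8, and neither was called. The genes share 82 exonic bases on opposite strands, 3.02% of the exonic length of Abcg5 and 2.19% of that of Abcg8. The sources used here do not state whether reads were counted by strand, so reads in that stretch cannot be assigned to one of them.

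RefSeq lists 2 starts for Abcg8, the upstream of which lies within Abcg5, and the coordinates above begin there. From the downstream start Abcg8 runs head to head with Abcg5, and the 109 bases between that start and the start of Abcg5 (GRCm38.p6, chr17:84683012-84683120, plus strand, read toward Abcg8) are shown because both genes, which lay lower together, share them. Capitals mark 2 matches to the GATA motif AGATAA, both on the minus strand and so printed as its reverse complement. Among RefSeq promoter windows of this length, 3.98% hold at least 1 match to AGATAA on either strand and 0.186% hold at least 2.
Abcg5-Abcg8: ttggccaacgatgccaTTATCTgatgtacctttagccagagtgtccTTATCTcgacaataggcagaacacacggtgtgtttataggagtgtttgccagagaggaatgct

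Abca1 (ENSMUSG00000015243), the basolateral exporter to apolipoprotein A-I, overlapped between the groups. Its level was 200.3, 247.9 and 305.1 CPM in the pools labelled Rbm47-IKO and 401.0, 241.9 and 188.1 CPM in the wt pools. The wt pools span the whole range of the other group, with wt pool 1 highest. The log2 fold change was -0.14 (SE 0.28, edgeR adjusted p = 0.880), and it ran from -0.35 without wt pool 3 to 0.22 without wt pool 1. Without the 2 pools richest in smooth muscle RNA it was -0.40. The coefficient of variation was 20.9% in the pools labelled Rbm47-IKO and 40.0% in the wt pools, against medians of 13.2% and 18.0% over all genes tested. The gene lies on chromosome 4 from 53030787 to 53159895 on the minus strand.

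The 250 bases before the RefSeq start of Abca1 (GRCm38.p6, minus strand, chr4:53159896-53160145) are shown as the promoter of a textbook LXR target. Capitals mark, from 5′ to 3′, 1 match to the E-box CACGTG, held by 6.02% of the 32851 windows, and 1 match on the opposite strand to a spaced repeat (GGTTA, any 4 bases, CGGTCA), held by 0.0122% of them. The letters of the spaced repeat were chosen after this sequence was seen. The sterol regulatory element TCACNCCAC, held by 1.05% of windows, is not among the letters of the 3 sequences printed here.
Abca1: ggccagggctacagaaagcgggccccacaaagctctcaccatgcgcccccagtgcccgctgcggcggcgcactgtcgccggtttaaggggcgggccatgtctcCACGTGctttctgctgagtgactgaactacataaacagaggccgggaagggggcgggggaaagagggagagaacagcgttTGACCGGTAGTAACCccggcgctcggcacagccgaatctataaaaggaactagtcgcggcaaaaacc

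Soat2 (ENSMUSG00000023045), which esterifies absorbed cholesterol, was at 260.1, 266.0 and 264.6 CPM in the pools labelled Rbm47-IKO and at 286.7, 342.1 and 388.3 CPM in the wt pools. The 3 pools labelled Rbm47-IKO were close to each other, with a coefficient of variation of 1.18%, and all lay below the wt pools, where it was 15.0%. The log2 fold change was -0.36 (SE 0.13) and was not called (edgeR adjusted p = 0.214). The gene lies on chromosome 15 from 102150526 to 102163474 on the plus strand.

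Nr1h3 (ENSMUSG00000002108), which encodes LXR alpha, was at 53.3, 58.0 and 57.6 CPM in the pools labelled Rbm47-IKO and at 66.9, 75.2 and 62.8 CPM in the wt pools. The groups did not overlap, and the log2 fold change was -0.28 (SE 0.11, edgeR adjusted p = 0.234). Of its exonic bases, 34 (1.35%) are shared with the predicted gene Gm13783. The gene lies on chromosome 2 from 91184061 to 91202834 on the minus strand.

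Both genes of lysosomal cholesterol exit were higher without being called. Npc1 (ENSMUSG00000024413), the membrane protein of the pair, was at 158.9, 152.4 and 160.8 CPM in the pools labelled Rbm47-IKO and at 145.2, 126.1 and 113.3 CPM in the wt pools. Npc2 (ENSMUSG00000021242), the soluble protein that hands cholesterol to NPC1, was at 65.1, 68.0 and 58.1 CPM and at 46.6, 57.7 and 49.3 CPM in the same order. On this scaling the groups of Npc1 were clear of each other, while the closest pools of Npc2 differed by less than 1 CPM. With library size only, the groups of Npc1 overlapped. The pool labelled Rbm47-IKO 2 then had 5772 of 38951830 reads and wt pool 1 had 4938 of 33001777. The log2 fold changes were 0.30 (SE 0.12, edgeR adjusted p = 0.260) for Npc1 and 0.32 (SE 0.12, edgeR adjusted p = 0.234) for Npc2. Npc1 lies on chromosome 18 from 12189693 to 12236400 on the minus strand and shares 2.63% of its exonic bases with Rmc1 and Gm15956. Npc2 lies on chromosome 12 from 84754560 to 84773112 on the minus strand.

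Osbpl1a stood apart from the other 9 genes. It encodes an oxysterol-binding protein relative whose long form, ORP1L, sits on late endosomes and senses their cholesterol. Osbpl1a (ENSMUSG00000044252) was at 77.2, 82.6 and 90.5 CPM in the pools labelled Rbm47-IKO and at 27.9, 27.9 and 25.8 CPM in the wt pools. Each pool labelled Rbm47-IKO was far above every wt pool, and the means were 83.4 ± 6.71 and 27.2 ± 1.23 CPM (SD, n = 3 each). The log2 fold change was 1.62 (SE 0.10), or 3.07-fold, with an edgeR adjusted p of 0.00596. By p-value it ranked 1 of the 16425 genes, and by log2 fold change 88. It rests on 939 to 3129 reads per pool. Over 6 refits that each dropped 1 pool, its log2 fold change ran from 1.56 to 1.67, and it was called in 5. The exception was the fit without the pool labelled Rbm47-IKO 2 (edgeR adjusted p = 0.057), in which 0 genes were called over the whole table and 1729 had an unadjusted p under 0.05. The gene lies on chromosome 18 from 12755314 to 12941841 on the minus strand, 518914 bases from Npc1, and shares no exonic base with another gene. Gene counts do not separate its long and short forms.

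**Figure D3:**
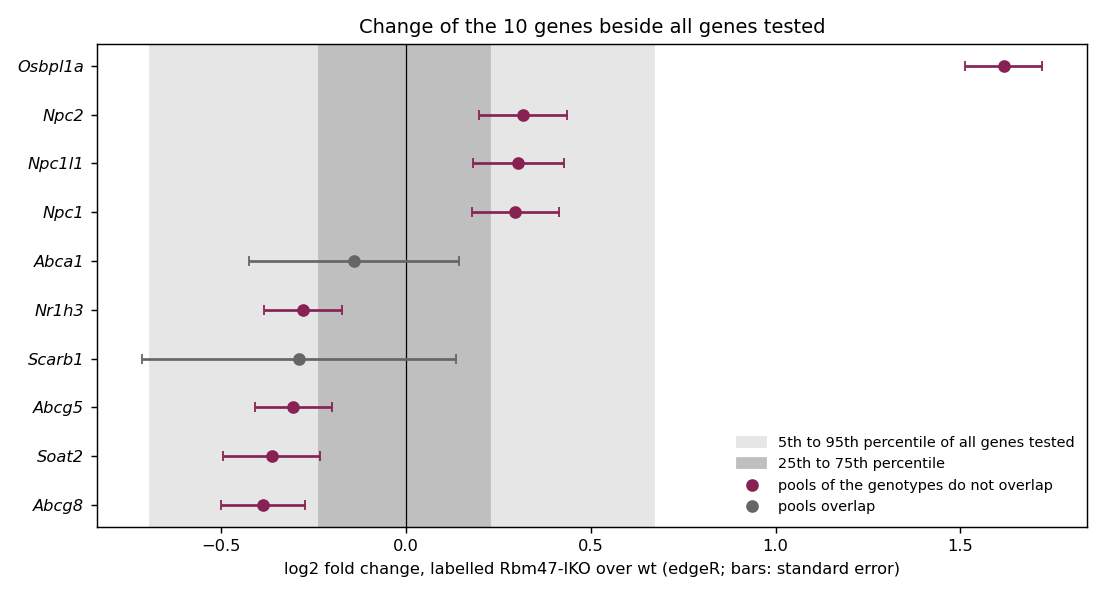
Log2 fold change of each of the 10 genes, labelled Rbm47-IKO over wt, from edgeR, with its SE. Osbpl1a is at 1.62 and the other 9 genes lie between -0.39 and 0.32.

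Ratios of RPKM within a pool do not depend on the scaling of that pool. The ratio of Npc1l1 to Abcg5 was 3.57, 3.71 and 3.74 in the pools labelled Rbm47-IKO and 2.293, 2.5004 and 2.429 in the wt pools. That of Npc1l1 to Abcg8 was 6.38, 6.60 and 6.41 against 3.85, 4.28 and 3.90. Importer to exporter ratios were thus 1.52-fold and 1.61-fold higher on average, with no overlap. The ratio of Abcg5 to Abcg8 was 1.79, 1.78 and 1.72 against 1.68, 1.71 and 1.61, without overlap but with the closest pools nearly touching. The ratio of Osbpl1a to Npc1 was 0.704, 0.787 and 0.817 against 0.279, 0.321 and 0.330, a 2.48-fold difference. The ratio of Npc1 to Npc2 was 0.742, 0.682 and 0.841 against 0.948, 0.665 and 0.698, and these overlap. These ratios combine genes chosen on the same contrast and carry no test.

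**Figure D4:**
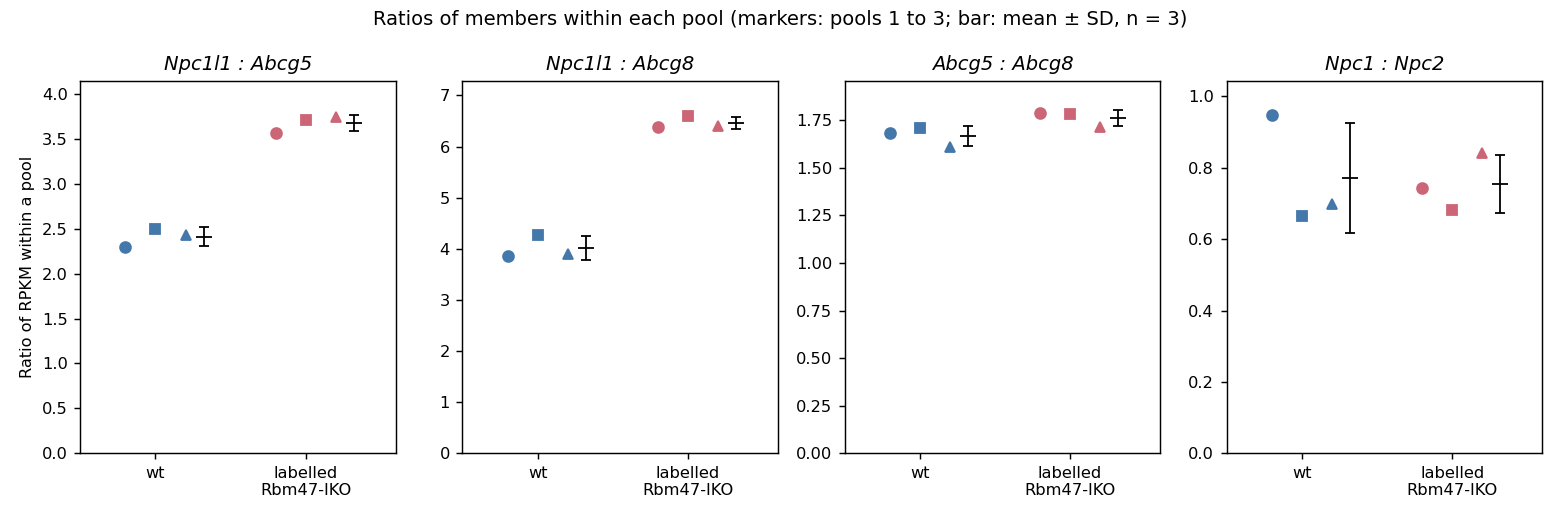
Ratios of RPKM between pairs of the 10 genes within each pool, with the mean and SD of 3 pools. The ratio of Npc1l1 to Abcg5 is 3.57 to 3.74 in the pools labelled Rbm47-IKO and 2.293 to 2.5004 in the wt pools.

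Other genes of sterol handling were read from 6 lists. Genes under SREBP2, the transcription factor that raises cholesterol synthesis when membrane sterol is low, were read first. Of 20 listed, edgeR called 16 higher and 0 lower in the pools labelled Rbm47-IKO, beside 1.45% and 1.25% of all genes tested. By direction alone, 19 were higher and 1 was lower (Sc5d). DESeq2 called 17 and limma-voom 15, all 20 had an unadjusted p under 0.05, and the median log2 fold change was 1.02. The mevalonate pathway enzymes Mvk and Mvd rose by 1.45 and 1.49 on the log2 scale, and Fdps and Fdft1, which carry the pathway on to squalene, rose by 1.48 and 1.42. Hmgcs1 at 0.46, Stard4 at 0.38 and Sc5d at -0.48 were among those not called. The count of 16 depended on single pools. Without the pools labelled Rbm47-IKO 1, 2 and 3 in turn it was 4, 0 and 10, and without wt pools 1, 2 and 3 it was 10, 11 and 2.

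Among 28 other genes of sterol trafficking, 1 rose and 1 fell by edgeR, beside 1.45% and 1.25% of all genes, and the median was -0.05. DESeq2 called 6 of them and limma-voom 2 (7.95% and 2.62% of all genes), and 10 had an unadjusted p under 0.05 (16.8% of all genes). The gene that fell was Cd36, a fatty acid and lipoprotein receptor, at 130.8 ± 25.2 CPM in the wt pools and 44.0 ± 6.80 CPM in the pools labelled Rbm47-IKO, a log2 fold change of -1.57 (SE 0.18, edgeR adjusted p = 0.0095). The count of 2 was 1 without the pool labelled Rbm47-IKO 1, 0 without pool 2 of that group and 1 without wt pool 3.

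The shares of all genes at each of these cuts were 16.8% for an unadjusted p under 0.05, 7.95% for DESeq2, 2.62% for limma-voom and 2.7% for edgeR, and the counts of the next 4 lists stand beside them. None of 14 other tested LXR pathway genes was called by edgeR, while 2 had an unadjusted p under 0.05 and DESeq2 called 2 and limma-voom 0. Smpdl3a at -0.54 and Scd2 at 1.30 had the lowest adjusted p in that list, 0.107 and 0.114. Nr1h2, which encodes LXR beta, and its partner Rxra each had a log2 fold change that rounds to 0.00. Of 11 other genes of the oxysterol-binding protein family none was called, with 1 at an unadjusted p under 0.05 and 0 calls by DESeq2 and by limma-voom. The closest were Osbpl5 at 0.55 (edgeR adjusted p = 0.18) and Osbpl3 at -0.42 (edgeR adjusted p = 0.344). Of 12 other tested ABCA and ABCG transporters 0 were called by edgeR, 1 by DESeq2 and 0 by limma-voom, and 1 had an unadjusted p under 0.05. Abca2 was at 0.78 (edgeR adjusted p = 0.07) and Abcg2 at 0.26 (edgeR adjusted p = 0.377). Of 12 tested lipoprotein partners edgeR called 0, DESeq2 2 and limma-voom 1, with 3 at an unadjusted p under 0.05. Apob, the chylomicron backbone, was at -0.87 (edgeR adjusted p = 0.0583) and Apoa4 at -1.01 (edgeR adjusted p = 0.0802). The medians of these lists were -0.02, -0.02, 0.18 and -0.09, beside -0.01 for all genes.

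**Figure D5:**
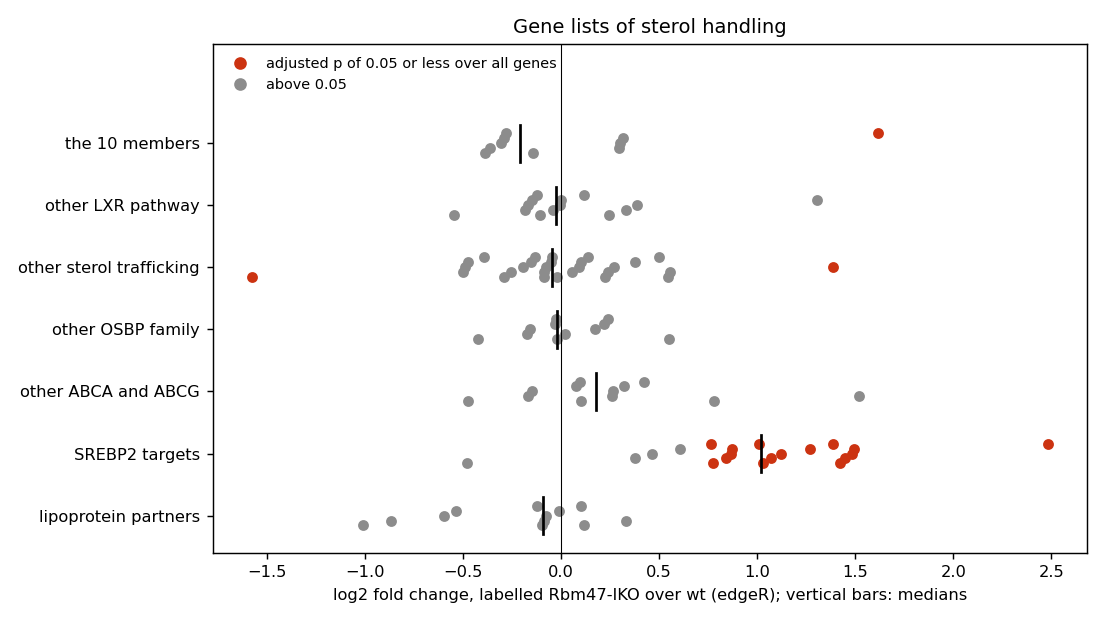
Log2 fold change (edgeR, labelled Rbm47-IKO over wt) of every tested gene in the 10 genes and in 6 lists of sterol handling, with list medians as vertical bars and called genes in red. The SREBP2 list has its median at 1.02, and the 10 genes have theirs at -0.21.

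The genes whose pattern over the 6 pools was nearest to each of the 10 were found by the root mean square difference of centred log2 CPM. For Osbpl1a these were Lingo1 and Fer1l4, at 0.110 and 0.129, with log2 fold changes of 2.04 and 1.72, and of the pair only Fer1l4 was called (edgeR adjusted p = 0.0134). For Npc1l1 they were Dsg2 and Rnpepl1, for Abcg5 Uck1 and Cdk5rap1, for Abcg8 Lonp2 and Hemk1, and for Soat2 Tmem18 and Atp6v1h. For Npc1 they were Ccnd2 and Mpig6b, for Npc2 Snx15 and Psma5, and for Nr1h3 Gimd1 and Slc7a4. Scarb1 was nearest to Cabp1 and Kcp and Abca1 to 4930415O20Rik and Gm23030. The nearest tested gene on either side of each of the 10 was also examined, and none of them was called by edgeR.

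Markers of other cells in a scraping were read beside these genes. The counts for each marker list stand beside shares of all genes of 2.7% called by edgeR, 7.95% by DESeq2 and 2.62% by limma-voom, 16.8% at an unadjusted p under 0.05, and 11.7% higher and 11.6% lower without overlap. The summed level of 7 goblet cell markers was 22078 to 25534 CPM in the pools labelled Rbm47-IKO and 16538 to 19329 CPM in the wt pools, so the sums did not overlap. Of the 7 markers 2 did not overlap (Clca1 and Fcgbp) and 5 did. Fcgbp, at 14330 against 11092 CPM, made up most of the sum. EdgeR called 0 of them, DESeq2 1 and limma-voom 0, with 2 at an unadjusted p under 0.05. Enteroendocrine markers lay lower, at 124.4 to 137.3 against 169.2 to 214.4 CPM, with 1 of 9 called by edgeR (Ghrl, at -1.44, edgeR adjusted p = 0.0393). All 9 had lower means, 5 of them without overlap. DESeq2 called 3 and limma-voom 1, and 6 had an unadjusted p under 0.05. Smooth muscle markers ranged widely in both groups, with the highest sums in the pool labelled Rbm47-IKO 3 and in wt pool 2. Without both of those pools the 10 genes kept the direction given above and Osbpl1a was at 1.57 (edgeR adjusted p = 0.00687). Summed macrophage markers, which matter for Abca1 and Nr1h3, were at 65.8 to 90.2 against 72.3 to 124.3 CPM and overlapped. Of 8 macrophage markers 1 lay lower without overlap (Lyz2, at -0.72) and 7 overlapped. EdgeR called 0, DESeq2 1 and limma-voom 0, with 1 at an unadjusted p under 0.05. Of 7 crypt markers 2 lay lower without overlap (Olfm4 at -1.65 and Pcna at -0.46) and 5 overlapped, and edgeR called 0 and DESeq2 1. All 8 B and plasma cell markers had lower means, 2 without overlap, and edgeR and DESeq2 called 0. Summed distal small intestinal markers were 517.9 to 686.3 against 347.8 to 520.0 CPM, overlapping narrowly. Of 6 distal markers 5 had higher means, Fabp6 at 1.93 and Slc51a at 0.62 without overlap, and edgeR called 0, DESeq2 2 and limma-voom 0, with 3 at an unadjusted p under 0.05. Summed proximal markers were 5361 to 6605 against 4624 to 6113 CPM and overlapped. Of 8 proximal markers 7 also had higher means, with Gata4 at 0.42, Slc40a1 at 0.45 and Pdx1 at 1.79 without overlap, and edgeR, DESeq2 and limma-voom called 0, with 3 at an unadjusted p under 0.05. Summed Y-linked genes, a reading of male RNA in pools of both sexes, varied between pools. They were at 138.6, 53.0 and 143.7 CPM in the pools labelled Rbm47-IKO and 215.4, 87.9 and 220.3 CPM in the wt pools. All 4 Y-linked genes had lower means, all 4 overlapped, and edgeR and DESeq2 called 0. The part of these cell types, of sex and of position along the gut in the values of the 10 genes was not tested.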

How the data were processed

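RNA of 6 mucosal pools was selected with oligo(dT) and sequenced. Per the submitters' processing notes, the authors aligned reads to GRCm38 with STAR 2.5.1a and counted them per gene with featureCounts 1.4.6-p5 of Subread. The annotation release and use of strand are not given in the sources used here. The deposited tables hold raw counts, with CPM and RPKM computed by the authors. Counts were tested with edgeR 4.0.16 (TMM, filterByExpr, quasi-likelihood test, Benjamini-Hochberg adjusted p of 0.05) in R 4.3.3, over all genes. CPM and RPKM printed here were recomputed from counts on TMM-scaled library sizes. DESeq2 1.42.0 and limma 3.58.1 served as alternatives, with other scalings, filters, a replicate block and each pool left out. Leaving out the 2 pools richest in smooth muscle RNA, and the overlap count under other scalings, were chosen after seeing the data. Scripts were tested on simulated data. The members and lists were chosen with earlier results of these data known. Genes named were the 10 genes, Rbm47, called genes of each list or otherwise its 2 lowest adjusted p, and the 2 genes nearest in pattern to each of the 10. Other list members are examples picked with their values in view. Promoter sequences and RefSeq starts came from RefSeq on GRCm38.p6, and gene coordinates and exons came with the deposited counts. Intervals were not computed because each value has pool replicates, and SDs are over 3 pools. Some genes of the lists are counted but not reported here by name.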

Additional observations from a re-analysis of the deposited data

How the results depend on the processing

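The count of genes called over the whole table, 443 by edgeR, was 1132 by DESeq2 and 100 with a replicate block, and 0 to 431 with each pool left out (32, 0 and 119 without the pools labelled Rbm47-IKO 1, 2 and 3, and 335, 431 and 11 without wt pools 1, 2 and 3). Deviations from the group mean had correlations of 0.408, -0.0026 and -0.277 between same-numbered pools. Between pools of different numbers the correlations ran from -0.536 to 0.479. With 3 pools per group these values cannot decide whether the numbers pair the pools. Of the SREBP2 targets 7 were called with the replicate block and 0 to 11 with pools left out. Of the 10 genes 0 to 1 were called with pools left out. The count of the 10 genes whose groups did not overlap was 8. It was 7 with library size only, where Npc1 overlapped, and 7 with upper quartile scaling. Other sterol trafficking genes called were 6 by DESeq2, 4 with upper quartile scaling, 4 with library size only and 0 to 2 with pools left out. Other LXR pathway genes called were 2 by DESeq2, 1 without the 2 pools richest in smooth muscle RNA and 0 to 2 with pools left out, the 2 without wt pool 2. Other oxysterol-binding protein family genes called were 1 without those 2 pools and 0 to 1 with pools left out, the 1 without wt pool 2, and DESeq2 called 1 other ABCA or ABCG gene. Lipoprotein partners called were 2 by DESeq2, 1 each with upper quartile scaling, library size only, the filter of 1 CPM, limma-voom and the robust fit, and 0 to 1 with pools left out, the 1 without wt pool 1 or 2. Direction turned for Scarb1 (-0.64 to 0.0135 with pools left out, the last without wt pool 3), Abca1 (-0.35 to 0.22, the last without wt pool 1), 4930415O20Rik (-0.32 to 0.28, with 0.0354 without the pool labelled Rbm47-IKO 1 and 0.28 without wt pool 1), Gm23030 (-0.37 to 0.13, the last without wt pool 1) and Kcp (-0.60 to 0.20, with 0.14, 0.0657 and 0.20 without the pool labelled Rbm47-IKO 1, wt pool 2 and wt pool 3). The cause was not tested. Over the named genes, 778 fits kept direction and side of the threshold, 84 lost a call, 19 gained one and 8 turned direction. Scarb1 rests on the fewest reads of the 10 genes.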
